A study of Mus musculus with 4 samples.

Results

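Gapdh and Pgk1 encode consecutive enzymes of glycolysis, and their probes were followed during adipocyte differentiation of 2 mouse cell lines. The members are 13 probes out of 60912 analysed per array. They are the array's RefSeq probe for Gapdh, printed in 20 spots, and the 12 control probes named Mouse-, Rat- or Human- followed by GAPDH_3, GAPDH_5, PGK1_3 or PGK1_5, printed in 10 spots each. The final 3 or 5 was read as the 3' or 5' end of the transcript, which the files do not spell out. The 7 Gapdh and 6 Pgk1 probes took up 140 of 62939 spots on each array.

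C3H10T1/2 is a fibroblast-like mouse line of mesenchymal progenitors and 3T3-L1 a mouse preadipocyte line. Each was sampled at day 0 and at day 4, counted from induction in the labels, on 1 one-colour array, all from 1 slide and 1 scan. The 4 groups thus have 1 sample each, and day 4 cannot be checked against day 0 over replicates. Whether day 0 cells were taken before the inducers were added is not stated in the labels. The labels do not name the inducing agents, and none of 21 adipocyte, fibroblast, muscle, bone and macrophage markers could be matched to a probe, so the extent of conversion was not checked from named genes. In bulk RNA, a change in the number of cells of a type and a change in RNA per cell cannot be told apart.

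Glycolysis breaks glucose down to pyruvate in the cytosol. Glyceraldehyde-3-phosphate dehydrogenase, the product of Gapdh, oxidises glyceraldehyde 3-phosphate and reduces NAD+, and phosphoglycerate kinase 1, the product of Pgk1, takes the phosphate of the resulting 1,3-bisphosphoglycerate to make ATP. In fat cells the pathway also supplies dihydroxyacetone phosphate for the glycerol backbone of triglyceride and pyruvate for fatty acid synthesis. Gapdh is widely used as a reference gene for normalising RNA measurements, and Pgk1 is a known target of hypoxia-inducible factor.

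The 250 bases before the start of each gene are shown because probes of both genes were higher at day 4 in both lines. Both genes matched by symbol in RefSeq sequences of build GRCm38.p6, and the windows are written 5′ to 3′ on the strand of the gene. Capitals mark matches on either strand to ACGTG (a form of the core of the hypoxia response element), GGGCGG (a GC box) and CCAAT. The form GCGTG was not searched for or marked. The Gapdh window lies at chr6:125165774-125166023 on the minus strand, and the Pgk1 window at chrX:106186850-106187099 on the plus strand.
Gapdh: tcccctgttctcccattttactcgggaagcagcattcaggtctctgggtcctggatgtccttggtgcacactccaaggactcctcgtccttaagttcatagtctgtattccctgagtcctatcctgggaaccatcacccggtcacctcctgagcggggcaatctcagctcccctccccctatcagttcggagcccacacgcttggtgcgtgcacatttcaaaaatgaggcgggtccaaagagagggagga
Pgk1: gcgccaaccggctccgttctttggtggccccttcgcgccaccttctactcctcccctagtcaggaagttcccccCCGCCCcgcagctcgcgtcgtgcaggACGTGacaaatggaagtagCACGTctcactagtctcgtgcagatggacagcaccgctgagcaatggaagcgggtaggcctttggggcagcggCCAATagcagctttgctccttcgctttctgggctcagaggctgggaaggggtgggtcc

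The Pgk1 window held 2 matches to ACGTG, with first bases 150 and 131 bases before the start, 1 to GGGCGG and 1 to CCAAT. The Gapdh window held none of these letter strings, and neither window held the E-box CACGTG, which contains ACGTG, or TATAAA. The letters GCGTG, which were not counted, do occur in the Gapdh window, so it cannot be said to lack the hypoxia core. Of 32851 mouse promoter windows of the same length, 16.6% held ACGTG, 32.7% GGGCGG, 33.9% CCAAT, 6.02% CACGTG and 12.4% TATAAA on either strand. These matches describe the letters only, and no factor was measured.

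Intensities below are the scanner's processed signal, averaged over the spots of a probe as a geometric mean. No spot was saturated on any array, and the brightest member spot reached 136570 units where the brightest spot of that array was at 202891. All 140 member spots were called well above background on all 4 arrays. Negative control spots had medians of 5.62 to 6.46 units. An intensity also depends on the sequence of its probe, so intensities of different probes do not rank their transcripts. For comparisons between arrays, the log2 intensity was taken relative to the 75th percentile of all noncontrol probes of the same array, which lay between 321 and 388 units on the 4 arrays. Errors are SDs over spots of 1 array or of 1 pair of arrays, which are technical.

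Gapdh was read first by its mouse-named probes. The 3' probe had 29890 units at day 0 and 72280 at day 4 in C3H10T1/2, and 37278 and 85684 in 3T3-L1. In C3H10T1/2 its spots lay from 27449 to 32596 at day 0 and from 68305 to 80488 at day 4, so the days did not overlap, and they did not in 3T3-L1. After scaling, the day 4 to day 0 ratio of the probe was 2.13 in C3H10T1/2, a log2 change of 1.09 ± 0.08 over 10 spots, and 2.50 in 3T3-L1 (1.32 ± 0.08 over 9 spots). Under quantile normalization its change in C3H10T1/2 was 0.97, just short of 2-fold.

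The mouse 5' probe of Gapdh had 13690 units at day 0 and 50565 at day 4 in C3H10T1/2, and 18931 and 83587 in 3T3-L1. Day 0 and day 4 spots again did not overlap. The ratio of days was 3.26 in C3H10T1/2 (log2 change 1.71 ± 0.07 over 9 spots) and 4.81 in 3T3-L1 (2.27 ± 0.06 over 9 spots).

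The RefSeq probe of Gapdh, named by the accession NM_008084, gave the smallest day 4 change of the 13. It had 74866 units at day 0 and 116118 at day 4 in C3H10T1/2, and 83404 and 124406 in 3T3-L1. The day 4 level ranked 69th from the top among noncontrol probes in C3H10T1/2 and 41st in 3T3-L1. Its scaled change was 0.45 ± 0.05 (19 spots) in C3H10T1/2 and 0.70 ± 0.08 (16 spots) in 3T3-L1, below 2-fold in both. Every spot was brighter at day 4, yet the 3 mouse probes of this 1 gene gave changes that differed by more than their spot SDs.

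Pgk1 was read by its mouse-named 3' and 5' control probes alone among probes of the mouse gene. The 3' probe had 40421 units at day 0 and 118740 at day 4 in C3H10T1/2, and 56980 and 119521 in 3T3-L1. The day 4 values of the lines lay close together, with overlapping spots. The ratio of day 4 to day 0 was 2.59 in C3H10T1/2 (log2 change 1.37 ± 0.06 over 9 spots) and 2.29 in 3T3-L1 (1.19 ± 0.07 over 8 spots). Under quantile normalization the change in 3T3-L1 was 0.99.

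The mouse 5' probe of Pgk1 had 216 units at day 0 and 1268 at day 4 in C3H10T1/2, and 424 and 1581 in 3T3-L1. Its spots ran from 199 to 227 and from 1234 to 1366 in C3H10T1/2 and from 394 to 468 and from 1420 to 1874 in 3T3-L1, so no pair of arrays overlapped. The day 4 to day 0 ratio was 5.18 in C3H10T1/2 (log2 change 2.37 ± 0.06 over 9 spots) and 4.07 in 3T3-L1 (2.02 ± 0.12 over 10 spots).

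The rat- and human-named probes match another species by name, and how far their sequences match the mouse transcripts was not tested. All 8 were higher at day 4 in both lines. The rat-named Gapdh probes had 1913 (3') and 2085 units (5') at day 0 in C3H10T1/2, while 3T3-L1 had 2654 and 3587. At day 4 they had 8039 and 9225 units in C3H10T1/2 and 13728 and 17098 in 3T3-L1. Their changes were 1.89 ± 0.15 and 1.97 ± 0.06 in C3H10T1/2, with 2.49 ± 0.14 and 2.38 ± 0.08 in 3T3-L1.

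The human-named 3' probe of Gapdh had 22344 and 66362 units at days 0 and 4 in C3H10T1/2, while 3T3-L1 had 30153 and 96504. Its changes were 1.39 ± 0.05 and 1.80 ± 0.06. The human-named 5' probe had 1215 and 5674 units in C3H10T1/2 and 2273 and 11141 in 3T3-L1, with changes of 2.04 ± 0.07 and 2.42 ± 0.07. Both probes were brightest on the 3T3-L1 day 4 array.

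Among the Pgk1 control probes, the human-named 3' probe had 11298 and 35332 units in C3H10T1/2 and 16409 and 37404 in 3T3-L1. Its changes were 1.47 ± 0.16 and 1.31 ± 0.11. The rat-named 5' probe had 195 and 1188 units in C3H10T1/2 and 378 and 1428 in 3T3-L1, with changes of 2.43 ± 0.07 and 2.04 ± 0.07.

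The dimmest members were Rat-PGK1_3 and Human-PGK1_5. Rat-PGK1_3 had 38.4 and 290 units in C3H10T1/2 and 64.0 and 340 in 3T3-L1, with changes of 2.74 ± 0.32 and 2.53 ± 0.37. Its spots had a CV of 13.6% to 24.5% on the 4 arrays. Human-PGK1_5 had 37.8 and 279 units in C3H10T1/2 and 94.9 and 365 in 3T3-L1, with changes of 2.70 ± 0.22 and 2.07 ± 0.16. At day 0 in C3H10T1/2 both were below the brightest of 300 negative control spots, at 42.5 units, so the sizes of their changes there are the least certain. With normexp background correction and quantile normalization, their changes in C3H10T1/2 were 1.61 each.

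In all, 12 of the 13 probes were at least 2-fold higher at day 4 in C3H10T1/2, where 8.52% of 38303 noncontrol probes above background were. In 3T3-L1 12 of 13 were as well, against 8.45% of 40237. The RefSeq probe was the exception in both lines, so 12 of 13 passed in both, where 4.2% of 36949 did. Under quantile normalization and with normexp, 11 of 13 passed in each line. Mouse-GAPDH_3 then also fell short in C3H10T1/2 (log2 change 0.97 and 0.99), as it did in the authors' values (0.97). In 3T3-L1 it was Mouse-PGK1_3 (0.99 and 0.96). Shares of all probes under these settings are not given here. No probe (0 of 13) was at least 2-fold lower, against 7.62% in C3H10T1/2 and 10.6% in 3T3-L1. At least 4-fold higher with the main scaling were 5 probes in C3H10T1/2, against 2.55% of noncontrol probes, and 8 in 3T3-L1, against 2.19%. The median log2 change of the 13 was 1.89 in C3H10T1/2 and 2.04 in 3T3-L1, beside -0.04 and 0.03 over all noncontrol probes above background. The 13 probes are named for 2 genes and are not independent of each other. No scaling or spot summary run here turned the day 4 change of any of the 13 below 0 in either line.

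Over both lines, limma was fitted with terms for cell line and day. Its residual has 1 degree of freedom per probe, which is the unequal part of the responses of the lines. The test therefore favours probes that changed alike in both lines and says nothing of the spread between repeated cultures. At an adjusted p under 0.05, 8 of the 13 probes rose, where 1.78% of the 38345 tested probes did. These were the 5' probes of both genes in all 3 species and the rat-named 3' probes. Mouse-PGK1_5 rose by a mean of 2.20 ± 0.30 on the log2 scale (SE, limma adjusted p = 0.0350) and Mouse-GAPDH_5 by 1.99 ± 0.31 (limma adjusted p = 0.0454). The smallest adjusted p was that of Rat-PGK1_3, with 2.64 ± 0.29 (limma adjusted p = 0.0269). It and Human-PGK1_5, also among the 8, are the dimmest members. Their means were 1.65 and 1.56 with normexp.

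The other 5 probes did not pass. They were the mouse- and human-named 3' probes and the RefSeq probe. Mouse-PGK1_3 had a mean log2 change of 1.28 ± 0.29 (SE, limma adjusted p = 0.0928) and Mouse-GAPDH_3 1.21 ± 0.29 (limma adjusted p = 0.106). Human-GAPDH_3 had 1.60 ± 0.30 (limma adjusted p = 0.0640), Human-PGK1_3 1.39 ± 0.29 (limma adjusted p = 0.0789) and the RefSeq probe 0.58 ± 0.29 (limma adjusted p = 0.380). With an intensity trend in the variance, 12 of 13 rose by limma, all but the RefSeq probe, where 2.56% of all tested probes did. Without scaling between arrays, with normexp, or without the cell line term, limma passed 0 of 13 probes, with 12, 13 and 12 at an unadjusted p under 0.05. Shares of all tested probes under these fits are not given here, so these counts cannot be set against the whole array.

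The size of the change followed the day 0 intensity of the probe. Across the 13 probes of C3H10T1/2, Pearson's r between change and day 0 log2 intensity was -0.95 (Spearman's rho -0.98), and in 3T3-L1 it was -0.69 (rho -0.71). Without the RefSeq probe r was -0.98 and -0.62. The probes share 4 arrays and are named for 2 genes, so this is a description. Medians of noncontrol probes over intervals of day 0 intensity covered a smaller range. In C3H10T1/2 they went the same way at the ends, from 0.16 in the dimmest interval to -0.24 in the brightest, and in 3T3-L1 all lay between -0.02 and 0.12. The share at least 2-fold higher was 12.3% in the dimmest interval of C3H10T1/2 and 10.7% in that of 3T3-L1. The spread of changes was narrower among the brightest probes. The SD was 0.40 for the 259 probes of 65536 units or more at day 0 in C3H10T1/2, where the RefSeq probe lies, against 0.84 for those between 4096 and 16384. In that brightest interval 0% were at least 2-fold higher in either line, and 5.02% and 2.18% were at least 2-fold lower. The part of signal brightness in the sizes of the Gapdh and Pgk1 changes was not tested.

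Probes of the 5' end had larger day 4 changes than those of the 3' end in the mouse- and human-named pairs. For mouse Gapdh the 5' change exceeded the 3' change by 0.61 (log2) in C3H10T1/2 and by 0.94 in 3T3-L1. For mouse Pgk1 it did so by 0.999 and 0.831, and for the human-named pairs by 0.65 and 0.61 (Gapdh) and 1.24 and 0.76 (Pgk1). The rat-named pairs did not follow this. The 5' minus 3' difference was 0.07 and -0.12 for Gapdh and -0.31 and -0.49 for Pgk1, with the dimmer, more variable probe at the 3' end of Pgk1. In the mouse and human pairs the 5' probe was the dimmer one, so end and intensity cannot be told apart there. Per the labels' protocols, RNA was amplified from oligo(dT) and random primers along whole transcripts, and RNA integrity values were not used here.

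On these arrays, the line with the larger day 4 change was not the same for the genes. All 7 Gapdh probes had the larger day 4 change in 3T3-L1, with a 3T3-L1 change minus C3H10T1/2 change of 0.23 to 0.60 on the log2 scale. All 6 Pgk1 probes had the larger change in C3H10T1/2, with differences of -0.63 to -0.15. Among all 38333 noncontrol probes tested, 53.6% had a difference above 0 and 46.4% below, with a median of 0.06 and an SD of 0.92, so differences of these sizes were common on the arrays. For Mouse-GAPDH_5 the difference was 0.56 ± 0.06 (SD over 8 spots) and every spot was above 0. For Mouse-PGK1_5 it was -0.35 ± 0.13 (9 spots) and for Mouse-PGK1_3 -0.18 ± 0.10 (8 spots), with every spot below 0. Rat-PGK1_3 and Human-PGK1_3 had differences within their spot SDs, -0.21 ± 0.43 and -0.15 ± 0.19. With 1 array per group the difference between the lines has no test.

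Setting the genes against each other on the same arrays removes any scaling constant. In C3H10T1/2, the change of the Pgk1 probe exceeded that of the Gapdh probe of the same species and end in 6 of 6 pairs, with differences of 0.07 up to 0.85. In 3T3-L1 it was the smaller one in 5 of 6 pairs, by differences of -0.49 to -0.13, and the rat 3' pair had 0.04. With normexp the Pgk1 change was the larger one in 4 of 6 pairs of C3H10T1/2 and in the authors' values in 5 of 6, and in 3T3-L1 it was the smaller one in 5 or 6 of 6 under all alternatives. The gap between the lines in this contrast favoured Gapdh in 3T3-L1 in 6 of 6 pairs, from 0.41 to 1.01. It did so in 6 of 6 pairs under quantile normalization, normexp, the authors' values and both other spot summaries, while another scaling constant cannot change it. The 6 pairs are probes of 2 genes on the same 4 arrays and are not replicates of this contrast. Gaps between pairs of other probes are not given here. The contrast also leaves differences in intensity, as between 13690 and 216 units at day 0 in C3H10T1/2 for the mouse 5' pair. The sign for single Gapdh probes depended on the scaling. The RefSeq probe had -0.07 under quantile normalization, -0.06 without scaling, -0.07 with normexp and -0.09 in the authors' values, and Mouse-GAPDH_3 had -0.07 without scaling. Rat-PGK1_3 turned to 0.07 with normexp.

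With the main scaling, the lines were close at day 0 for the bright mouse probes. Mouse-GAPDH_3 differed by 0.05 ± 0.06 (3T3-L1 minus C3H10T1/2, SD over 9 spots), which is within its spot spread, but by 0.19 under quantile normalization and with normexp, 0.21 in the authors' values and 0.32 without scaling. Mouse-GAPDH_5 was 1.15-fold higher in 3T3-L1 (0.20 ± 0.08), Mouse-PGK1_3 1.17-fold (0.22 ± 0.11) and Mouse-PGK1_5 1.63-fold (0.70 ± 0.09). Under quantile normalization, in the authors' values and without scaling, Mouse-PGK1_3 had 0.49, 0.49 and 0.50. Mouse-GAPDH_5 had 0.26, 0.27 and 0.47. The RefSeq probe was lower in 3T3-L1 (-0.12 ± 0.07), but was higher under quantile normalization (0.24), without scaling (0.16), with normexp (0.28) and in the authors' values (0.26). At day 4, Mouse-GAPDH_5 was 1.69-fold higher in 3T3-L1 (0.76 ± 0.08) and Mouse-GAPDH_3 1.21-fold (0.28 ± 0.09), while Mouse-PGK1_3 did not differ beyond its spot spread (0.04 ± 0.04) and Mouse-PGK1_5 was 1.28-fold higher (0.35 ± 0.11). Under quantile normalization and in the authors' values, Mouse-GAPDH_5 had 0.94 and 0.98, Mouse-GAPDH_3 0.40 and 0.41, and Mouse-PGK1_3 0.09 and 0.11.

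The 4 mouse-named control probes gave the same order of the 4 arrays for both genes, with 3T3-L1 day 4 highest, then C3H10T1/2 day 4, 3T3-L1 day 0 and C3H10T1/2 day 0. With the main scaling, neighbours not separated beyond spot spread were the day 0 pair for Mouse-GAPDH_3, whose unscaled spots did not overlap, and the day 4 pair for Mouse-PGK1_3, and day 4 spots of the lines also overlapped for Mouse-GAPDH_3. Between lines, 1 of 13 probes was at least 2-fold higher in 3T3-L1 at day 0, Human-PGK1_5 (2.08-fold), where 7.63% of noncontrol probes were. At day 4 it was Human-GAPDH_5 (2.01-fold), where 6.63% were. The former was below 2-fold, a log2 difference of 1, under quantile normalization (0.98), in the authors' values (0.95) and with normexp (0.46), and the latter without scaling (0.97). None (0 of 13) was 2-fold lower in 3T3-L1, against 6.37% at day 0 and 8.3% at day 4. Limma over both days passed 0 of 13 probes for line, with 1 at an unadjusted p under 0.05, and called 1.72% of all tested probes higher in 3T3-L1.

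Of 24 genes of glycolysis and glucose uptake, the files allow 3 to be named, Gapdh, Pgk1 and Ldhal6b, a lactate dehydrogenase A-like gene. Of 10 genes of branches towards lipid or NADPH, 2 could be named. These are G6pd2, which encodes a glucose-6-phosphate dehydrogenase and has the near-identical copy G6pdx, and Gk, which phosphorylates glycerol. None of the RefSeq probes of these genes passed limma for day in either direction, where 1.78% of all tested probes rose and 1.24% fell. Against such shares, none passing among so few probes says little. G6pd2 had changes of 1.45 and 1.40 in C3H10T1/2 and 3T3-L1 (limma adjusted p = 0.0737), Gk -0.20 and 0.50 (limma adjusted p = 0.874), and Ldhal6b, which was above background on 2 arrays, 0.74 and -1.18 (limma adjusted p = 0.886).

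Over the 4 arrays, the 13 members had pairwise Pearson's r of at least 0.904 (median 0.980 over 78 pairs). Among the other 14 named genes, those with the pattern most like the RefSeq probe of Gapdh were G6pd2 (r = 0.97), Hprt, of purine salvage (r = 0.91), and Tfrc, the transferrin receptor (r = 0.77). With 4 arrays, these values carry little information.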

How the data were processed

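Signals of 4 one-colour Agilent arrays were analysed. The deposited scanner files, made with Agilent Feature Extraction 11.0.1.1 per the submitters' processing notes, hold the processed intensity of each spot, corrected for background within an array and not scaled between arrays, and unprocessed medians. The authors' deposited table holds log2 values whose normalization is not given in the sources used here. Its columns had r of 0.999 or more with the log2 scanner intensity, and it served as an alternative.

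The main value was log2 processed intensity minus the array's 75th percentile over noncontrol probes, averaged over spots without outlier flags. This left 60900 noncontrol probes and the 12 control probes. A fold was counted at 2-fold or more in probes above background on at least 1 array, with a dim array set to the higher of its own and its lowest detected signal. Limma 3.58.1 (R 4.3.3) used probes above background on 2 or more arrays and Benjamini-Hochberg adjustment over all of them. The fit was also run on simulated data with variances drawn to resemble its own and changes alike in both lines. That run checks the code and not the fit to these arrays. The rule for genes named in the text took all 13 probes, mouse-named ones first, and the 3 named genes most correlated with Gapdh. Members and lists were chosen with earlier results of these data known. The lists included 15 reference genes, of which 11 were named and 0 passed limma for day (1, Tfrc, at an unadjusted p under 0.05). Of all tested probes, 1.78% rose and 1.24% fell by limma. Alternatives were other scalings, background corrections, spot summaries, thresholds, filters and fits. Which transcripts or pseudogene copies each probe reads was not tested.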

Additional observations from a re-analysis of the deposited data

How the results depend on the processing

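The day 4 changes of all 13 probes kept their direction in both lines under every scaling, background correction and spot summary run, the authors' values included. The use of the authors' values for the control probes, and of the scalings for the difference between responses, was chosen after seeing the data. The median change of the 13 probes in C3H10T1/2 was 1.76 under quantile normalization, 1.82 with the other 75th percentile, 2.07 without scaling, 1.61 with normexp and 1.76 in the authors' values. In 3T3-L1 it was 1.96 with the other 75th percentile, 1.92 without scaling and 1.68 with normexp. At 4-fold with the main scaling, 5 probes passed in C3H10T1/2 (2.55% of noncontrol probes) and 8 in 3T3-L1 (2.19%). In 3T3-L1 without scaling, Mouse-PGK1_5, Rat-PGK1_5 and Human-PGK1_5 fell short of 4-fold (log2 changes 1.90, 1.92 and 1.95). They also did with the other 75th percentile (1.94, 1.96 and 1.99) and with normexp, as did Rat-PGK1_3 with normexp (1.68). Mouse-PGK1_5 was just short under quantile normalization and in the authors' values as well (1.999 each). In C3H10T1/2, Human-GAPDH_5, Human-PGK1_5 and Rat-PGK1_3 fell short with normexp (1.88, 1.61 and 1.61). Human-GAPDH_5 also fell short in C3H10T1/2 under quantile normalization (1.92), with the other 75th percentile (1.97) and in the authors' values (1.92). Rat-GAPDH_3 and Rat-GAPDH_5 passed there without scaling (2.07 and 2.15). The number passing limma for day was 0 without scaling (smallest adjusted p = 0.128), 0 with normexp (0.0605) and 0 without the cell line term (0.135), and 7 to 12 under the other alternatives. Except for the fit with an intensity trend, shares of all tested probes under these alternatives are not given here. Causes were not tested. Without scaling, the median of all probes shifted to 0.14 in C3H10T1/2 and to 0.25 between lines at day 0. The difference between the lines at day 0 for the RefSeq probe of Gapdh turned to 0.244 (quantile), 0.156 (no scaling), 0.278 (normexp) and 0.261 (authors' values). The labels carry no replicate numbers, and days were compared within lines through the cell line term. Precision is limited by the number of arrays, and in C3H10T1/2 the dimmest Pgk1 probes lie near the brightest negative controls at day 0.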
